A study of Mus musculus with 136 samples.

Results

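Tdpoz3, Tdpoz4, Zscan4c, Zscan4d and Zscan4f are 5 mouse genes known for their activity in the 2-cell embryo, and they were taken as a given list of symbols from the 21887 protein-coding genes of the RefSeq annotation. Each gene was examined with a window made of its body plus 10000 bp on both sides, on mm10. All peaks and regions of 10 deposited lists that touched a window were collected, which gave 15 different intervals of the 607753 in the lists. The paragraphs that follow describe where these intervals lie, how wide and how strong they are, and how the genes compare with their relatives and with all coding genes.

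The series holds ChIP-seq of mouse embryonic stem cells (ESCs) in which MCM2, a helicase subunit that hands parental histones to the lagging strand, carries mutations that weaken histone binding (MCM2-2A), with wild-type (WT) cells beside them. All cells were of the E14JU line, strain 129/Ola, untreated and grown in serum with LIF. SUZ12 peaks were listed for MCM2-2A clone 439, for MCM2-2A clone 442 and for WT clone 410, from 3 replicates each. The histone marks were listed for WT clone 410 alone, in an original experiment with 2 replicates (H3K9me3, H3K27me3, H3K4me3 and H3K27ac) and in a rescue experiment with 3 replicates (H3K9me3, H3K27me3 and H3K4me3). These 10 lists rest on 26 of the 136 libraries. MCM2-2A is represented by 2 clones and WT by a single clone, and each list joins its replicates, so a list gives 1 value per gene with no spread, no test between lists was possible, and the sequencing depth is unknown. A gene with no interval in a list is a gene at which the caller listed nothing, which is not a measured absence of the mark. As a check of the cell type, the highest H3K27ac peak in the window had a median fold enrichment of 33.0 at 12 pluripotency genes, against 3.75 at 10 genes of other cell types. Genes with no H3K27ac peak in the window entered these medians as 0. A peak was listed at all 12 pluripotency genes and at 6 of the 10 others.

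Zscan4 genes encode proteins with a SCAN domain and zinc fingers, and they are switched on in a burst at the 2-cell stage and from time to time in a small share of cultured ESCs, in which they are tied to telomere maintenance. Tdpoz genes encode proteins with a TRAF domain and a POZ domain, related to Spop, an adaptor of a ubiquitin ligase, and they were first found in the early embryo. H3K9me3 marks heterochromatin over repeats and gene clusters, H3K27me3 is laid down by Polycomb repressive complex 2, of which SUZ12 is a core subunit, and H3K4me3 and H3K27ac mark active promoters and enhancers.

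The genes lie in arrays of near copies. Tdpoz4 (chr3:93796398-93797510, 1113 bp) and Tdpoz3 (chr3:93826020-93827117, 1098 bp) are neighbours, 28.5 kb apart. Zscan4c (chr7:11005745-11010547), Zscan4d (chr7:11161643-11166148) and Zscan4f (chr7:11397915-11402318) are between 4404 and 4803 bp long, with 151 kb between Zscan4c and Zscan4d and 232 kb between Zscan4d and Zscan4f. To show how alike the copies are, the promoter stretches of RefSeq (GRCm38.p6, the same build as mm10, 250 bases before to 50 bases after the start site) are printed for the 3 Zscan4 genes. Capitals in Zscan4d and Zscan4f mark the bases that differ from Zscan4c in a pairwise alignment, and positions run 5′ to 3′ along each gene. Zscan4c is on the plus strand at chr7:11005495-11005794, Zscan4d on the minus strand at chr7:11166099-11166398, and Zscan4f on the plus strand at chr7:11397665-11397964.
Zscan4c: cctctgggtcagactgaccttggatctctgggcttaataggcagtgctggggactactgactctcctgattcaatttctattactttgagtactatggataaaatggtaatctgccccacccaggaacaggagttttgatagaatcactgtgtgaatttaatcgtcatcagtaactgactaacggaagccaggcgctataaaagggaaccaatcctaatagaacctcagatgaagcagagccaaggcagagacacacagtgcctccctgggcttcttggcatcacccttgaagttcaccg
Zscan4d: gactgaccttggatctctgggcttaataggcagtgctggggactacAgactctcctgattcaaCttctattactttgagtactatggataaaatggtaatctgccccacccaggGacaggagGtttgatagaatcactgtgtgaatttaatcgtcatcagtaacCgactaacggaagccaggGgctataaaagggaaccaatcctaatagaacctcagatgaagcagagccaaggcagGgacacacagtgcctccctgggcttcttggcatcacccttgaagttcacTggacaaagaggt
Zscan4f: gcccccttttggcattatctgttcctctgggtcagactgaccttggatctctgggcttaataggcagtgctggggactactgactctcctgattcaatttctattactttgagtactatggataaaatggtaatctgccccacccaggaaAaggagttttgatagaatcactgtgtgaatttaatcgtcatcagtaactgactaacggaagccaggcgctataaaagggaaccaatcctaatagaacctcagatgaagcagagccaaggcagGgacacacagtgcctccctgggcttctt
Zscan4f differed from Zscan4c at 2 of 277 aligned bases (99.3% identity) and Zscan4d differed from Zscan4c at 8 of 289 (97.2%). Zscan4d and Zscan4f shared 97.4% of 266 aligned bases. A read from such a stretch can fit several copies, and the sources used here do not state how reads with several placements were treated, so which copy a peak belongs to is uncertain for the 3 Zscan4 genes.

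The Tdpoz4 promoter is printed because it was the member promoter that lay inside a listed H3K9me3 region in both experiments. It is on the plus strand at chr3:93796148-93796447, and Tdpoz3 had no entry in the promoter table.
Tdpoz4: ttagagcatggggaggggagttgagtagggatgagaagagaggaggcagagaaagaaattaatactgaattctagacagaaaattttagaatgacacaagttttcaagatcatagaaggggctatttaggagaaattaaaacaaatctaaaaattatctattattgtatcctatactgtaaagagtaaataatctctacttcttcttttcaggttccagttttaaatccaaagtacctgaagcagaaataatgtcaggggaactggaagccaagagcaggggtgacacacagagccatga
The Tdpoz4 stretch held no CG dinucleotide, as did 5.43% of the 32851 promoters in the table, whose median was 7. Near the start site, Tdpoz4 was less like its relatives than the Zscan4 copies were like each other. Tdpoz4 shared 94.7% of bases with the second of the start sites of Tdpoz8 but 67.5% with Tdpoz5 and 67.3% with Tdpoz7. Other Tdpoz copies were as alike as the Zscan4 copies, with 99.7% between Tdpoz5 and Tdpoz7 and 99.6% between Tdpoz1 and Tdpoz9. Tdpoz3 could not be compared in this way. Which copy a peak belongs to is therefore uncertain among the Tdpoz genes as well, and was not tested.

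H3K9me3 in the original experiment covered the 2 Tdpoz genes and none of the 3 Zscan4 genes. The 2 of 5 genes with a region in their window stood beside a background of 47.8% of all coding genes. A single region, chr3:93792220-93860200, held both Tdpoz4 and Tdpoz3 whole and no other annotated gene. It was 67981 bp wide, which ranked 34 by width and 146 by strength among 40376 regions. The region began 4.18 kb before Tdpoz4 and ended 33.1 kb beyond Tdpoz3, so that it filled 100% of the Tdpoz3 window and 72.4% of the Tdpoz4 window. The 2 Tdpoz genes were covered whole, as were 0.777% of coding genes. The coding genes were not matched for length, and short bodies, here 1113 and 1098 bp, are more easily covered whole. This limit holds for every share of coding genes by cover given here and below. Shares of coding genes with any region or peak were not matched for length either. There longer genes have longer windows, which are more easily touched. At least 50% of the window was covered at 1.24% of coding genes, and 0.0959% of them had as much as Tdpoz3. The nearest original regions to the Zscan4 genes were 48.1 kb from Zscan4c, 73.0 kb from Zscan4d and 83.0 kb from Zscan4f.

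In the rescue experiment, with the same WT clone, the genes with H3K9me3 were Tdpoz4, Zscan4d and Zscan4f, or 3 of 5 against 76.8% of coding genes. Tdpoz4 was again covered whole, by a region of 16261 bp (chr3:93790070-93806330) that ranked 4007 by strength among 104026. Joined with its neighbours within 5000 bp it would span 64441 bp, and the original region 75131 bp, so these widths lie closer together under that setting. The stretches still differ. The joined rescue span lies mostly to the left of Tdpoz4 and ends before Tdpoz3, and the joined original span runs to the right over Tdpoz3. A second rescue region of 16731 bp reached the left edge of the Tdpoz4 window. Together the unjoined regions covered 80.0% of the Tdpoz4 window. Tdpoz4 and Zscan4d were covered whole in this list, as were 2.35% of coding genes, and both had at least 50% of the window covered, as had 4.44%. Tdpoz3, inside the wide region of the original list, had no region in the rescue list within 19.7 kb. Of the 67981 bp of the original region, 14111 bp (20.8%) lay in a rescue region, and all of these bases were around Tdpoz4.

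**Figure D1:**
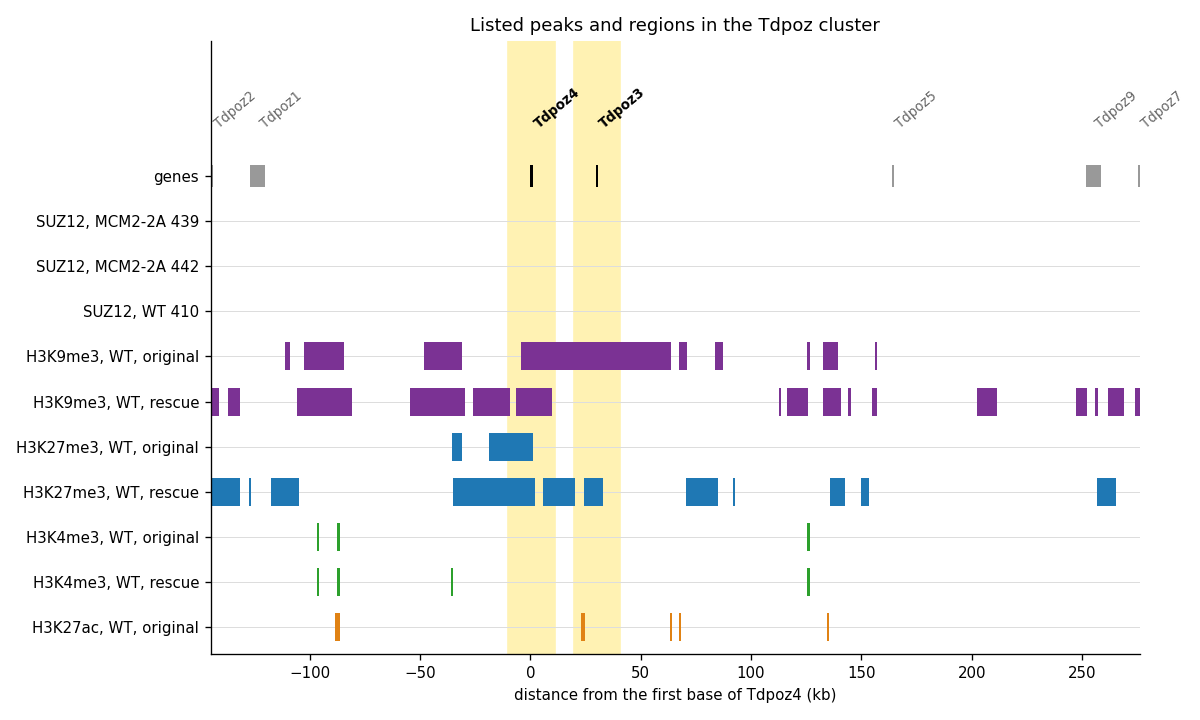
Listed peaks and regions across the Tdpoz cluster from Tdpoz2 to Tdpoz7, by distance from the first base of Tdpoz4 in kb. Each row is a list, bars are intervals to scale (very short ones widened to stay visible), and yellow bands are the windows of Tdpoz4 and Tdpoz3. The original H3K9me3 row has 1 region of 67981 bp over both genes, the rescue region over Tdpoz4 ends 8.82 kb beyond it and before Tdpoz3, and the 3 SUZ12 rows are empty. The regions are drawn as listed, before any joining.

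Zscan4d showed the reverse order of the lists. In the rescue experiment it sat inside a region of 209641 bp (chr7:11103930-11313570), which ranked 12 by width and 3296 by strength among 104026 regions. The region covered 100% of the Zscan4d window, a share that 0.576% of coding genes had, and it reached 57.7 kb to the left and 147 kb to the right of the gene. It spanned 12 annotated genes, of which Zscan4d was the 1 coding gene and Zscan4e, annotated as a pseudogene, another member of the family. None of its bases lay in a region of the original list. Zscan4f had a region of 2591 bp that ended 2585 bp from the gene, covered 10.6% of the window and ranked 92416 by strength. Zscan4c had no region in either list, with the nearest rescue region 81.3 kb away.

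**Figure D2:**
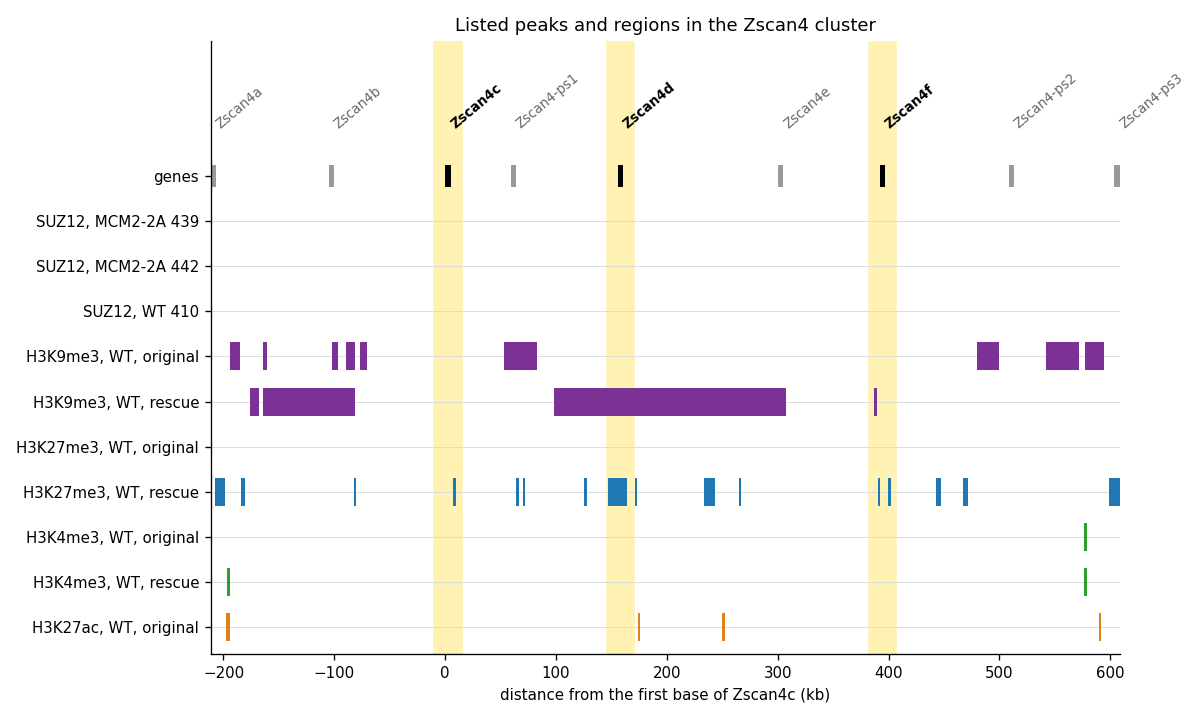
Listed peaks and regions across the Zscan4 cluster from Zscan4a to Zscan4-ps3, by distance from the first base of Zscan4c in kb. Each row is a list, bars are intervals to scale (very short ones widened to stay visible), and yellow bands are the windows of Zscan4c, Zscan4d and Zscan4f. The rescue H3K9me3 region of 209641 bp covers Zscan4d and Zscan4e where the original row is blank, and the original H3K27me3 row is blank across the whole cluster.

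The 5 genes thus showed 4 combinations of the H3K9me3 lists. Tdpoz4 had a region in both, as did 46.7% of coding genes, and Zscan4c had none in either, as did 22.1%. Zscan4d and Zscan4f had one in the rescue list alone, a combination seen at 30.1%. Tdpoz3 had one in the original list alone, and this combination was found at 1.06% of coding genes. Across all coding genes, 97.8% of those with an original region also had a rescue region. Of the 21 coding genes whose window was covered whole in the original list, 5 had no rescue region, and they were Tdpoz3, Esp3, Gm5947, Olfr835 and Scgb1b27. For Zscan4d the pattern was more common, since 61 of 126 coding genes with a window covered whole in the rescue list had no original region.

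H3K27me3 was listed at Tdpoz4 alone in the original experiment, and at all 5 genes in the rescue experiment. The backgrounds were 52.0% of coding genes in the original list and 72.3% in the rescue list, which covered 363 Mb and 930.0 Mb of the genome. At Tdpoz4 the original region of 19951 bp covered 91.9% of the gene with its start site and 52.2% of the window, and the rescue region of 37261 bp covered the whole gene. Both rescue regions near Tdpoz4 together filled 83.4% of its window. At least 50% of the window was covered at Tdpoz4 alone in the original list, a level reached at 7.09% of coding genes, and at Tdpoz4 and Zscan4d in the rescue list, where 22.5% reached it. Tdpoz3 was covered whole by a rescue region of 8591 bp, and 44.3% of its window was covered. Zscan4d was covered whole by a rescue region of 16941 bp that filled 69.1% of its window and ranked 4803 by strength among 63473. The 3 genes covered whole in the rescue list (Tdpoz3, Tdpoz4 and Zscan4d) stood beside 12.4% of coding genes, and none of the 5 was covered whole in the original list, against 5.33%. At Zscan4c and Zscan4f the regions stayed outside the gene. Zscan4c had 1 region of 1101 bp, 2483 bp beyond the gene, with 4.44% of the window covered. Zscan4f had regions of 1521 and 931 bp, the nearer one 475 bp before the gene, with 10.0% of the window covered. Tdpoz3 and the 3 Zscan4 genes thus had H3K27me3 in the rescue list alone, a combination found at 25.3% of coding genes. Counted over the gene body alone, H3K9me3 was at 2 of 5 genes in the original list (28.4% of coding genes) and 2 of 5 in the rescue list (49.2%), and H3K27me3 at 1 of 5 (34.8%) and 3 of 5 (51.2%).

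Both marks were listed over the same bases at Tdpoz4 and Zscan4d. These were 1 of 5 genes in the original lists, against 8.96% of coding genes, and 2 of 5 in the rescue lists, against 37.2%. At Tdpoz4 they shared 5.20 kb (24.6% of the window) in the original lists and 13.4 kb (63.3%) in the rescue lists. At Zscan4d the rescue lists shared 16.9 kb (69.1%), which was the whole of the H3K27me3 region, inside the wide H3K9me3 region. Shares as large as these were found at 0.0959% of coding genes for Tdpoz4 in the original lists, and in the rescue lists at 0.219% for Tdpoz4 and 0.174% for Zscan4d. At Tdpoz3 both marks were listed, but H3K9me3 in the original experiment and H3K27me3 in the rescue experiment, so no base was under both within 1 experiment. The promoter stretches printed above followed the same split. The Tdpoz4 promoter was fully covered by H3K9me3 and H3K27me3 in both experiments, and the Zscan4d promoter by both marks in the rescue experiment. The Zscan4c and Zscan4f promoters were in no region of any list, with a rescue H3K27me3 region 225 bp from the Zscan4f stretch and 7.24 kb from the Zscan4c stretch.

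The marks of active promoters were nearly missing from the lists at these genes. No H3K4me3 peak fell in any of the 5 windows in either experiment, against backgrounds of 81.9% of coding genes in the original list and 83.4% in the rescue list. The nearest H3K4me3 peak to Tdpoz4 was 87.0 kb away in the original list and 35.6 kb in the rescue list, and the nearest to Tdpoz3 was 94.8 kb and 65.2 kb. For the Zscan4 genes these distances ran from 180043 to 509800 bp in the original list. H3K27ac was listed near Tdpoz3 alone, or 1 of 5 genes against 73.4% of coding genes. Its 2 peaks, 537 and 185 bp wide, lay 6063 and 5617 bp from the gene, with fold enrichments of 2.60 and 2.83, below the list median of 3.98. They ranked 119663 and 112320 among 128247 peaks and lay inside the wide original H3K9me3 region. The nearest H3K27ac peak to Zscan4d was 13.6 kb away, with a fold enrichment of 5.14.

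SUZ12, the one factor listed for both genotypes, had no peak in the window of any of the 5 genes in MCM2-2A clone 439, in MCM2-2A clone 442 or in WT clone 410. The backgrounds were 30.8%, 32.6% and 26.5% of coding genes in these 3 lists. The nearest peak to Tdpoz4 was 347 kb away in clone 439, in clone 442 and in clone 410, and it was the same site in each. For the Zscan4 genes the nearest site was also the same in all 3 lists, 1.92 Mb from Zscan4c, 1.76 Mb from Zscan4d and 1.53 Mb from Zscan4f. In the rescue list H3K27me3 touched all 5 windows, against 72.3% of coding genes, with the nearest SUZ12 peak of any clone 346883 bp away or farther. At Zscan4c and Zscan4f it covered 4.44% and 10.0% of the window. The share of coding genes with H3K27me3 and no SUZ12 peak was not computed, so this combination is not shown to be particular to these genes. Of all coding genes, 16.4% had neither H3K4me3 nor SUZ12 in any list, and 14.7% had no H3K27ac either, as was the case for Tdpoz4 and the 3 Zscan4 genes.

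The other copies of the families also differed between the lists. The annotation holds 8 Tdpoz and 9 Zscan4 genes, pseudogenes included. A region touched the window of 6 of 8 Tdpoz genes in the original H3K9me3 list, beside 47.8% of coding genes. In the rescue list it was 7 of 8, with Tdpoz3 the exception, beside 76.8% of coding genes. Outside Tdpoz3 and Tdpoz4 the original regions were small or at the edge, covering between 0.528% and 14.1% of the windows of Tdpoz1, Tdpoz5, Tdpoz7 and Tdpoz8, and none were at Tdpoz2 or Tdpoz9. In the rescue list these 6 genes ranged from 11.0% at Tdpoz5 to 74.7% at Tdpoz7, with 58.5% at Tdpoz2, 49.4% at Tdpoz9, 28.9% at Tdpoz8 and 20.7% at Tdpoz1. Tdpoz5 and Tdpoz7, whose promoters were 99.7% identical, thus had 0.576% and 0.528% in the original list but 11.0% and 74.7% in the rescue list.

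Among the 9 Zscan4 genes, 4 had an original H3K9me3 region (Zscan4b, Zscan4-ps1, Zscan4-ps2 and Zscan4-ps3), beside 47.8% of coding genes. A rescue region was at 4 of 9 (Zscan4b, Zscan4d, Zscan4e and Zscan4f), beside 76.8%. Zscan4b was the 1 gene in both lists, a combination found at 46.7% of coding genes. Zscan4b was covered to 24.8% in the original list and to 100% in the rescue list. Zscan4-ps1, between Zscan4c and Zscan4d, was covered to 85.8% by an original region of 29991 bp and had no rescue region. Zscan4e was covered to 70.7% in the rescue list alone, by the region it shares with Zscan4d. For H3K27me3, no Zscan4 gene had an original region and 6 of 9 had a rescue region, beside 52.0% and 72.3% of coding genes. The rescue regions covered 80.2% of the window at Zscan4-ps3, 77.3% at Zscan4a and 11.8% at Zscan4-ps1. For H3K27me3 at the Tdpoz genes, 2 of 8 had an original region and 6 of 8 a rescue region, beside the same 52.0% and 72.3%. The original cover was 43.8% at Tdpoz8. The rescue cover was 100% at Tdpoz2, 50.5% at Tdpoz1, 32.1% at Tdpoz9 and 1.33% at Tdpoz7. No copy of either family had a SUZ12 peak in its window, against 30.8%, 32.6% and 26.5% of coding genes in clones 439, 442 and 410. Tdpoz7 was the 1 copy with an H3K4me3 peak, with folds of 12.6 in the original and 8.14 in the rescue list, 8.37 kb from the gene beside an H3K27ac peak of fold 15.9. Zscan4a had an H3K27ac peak of fold 3.82, 9.21 kb away.

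**Figure D3:**
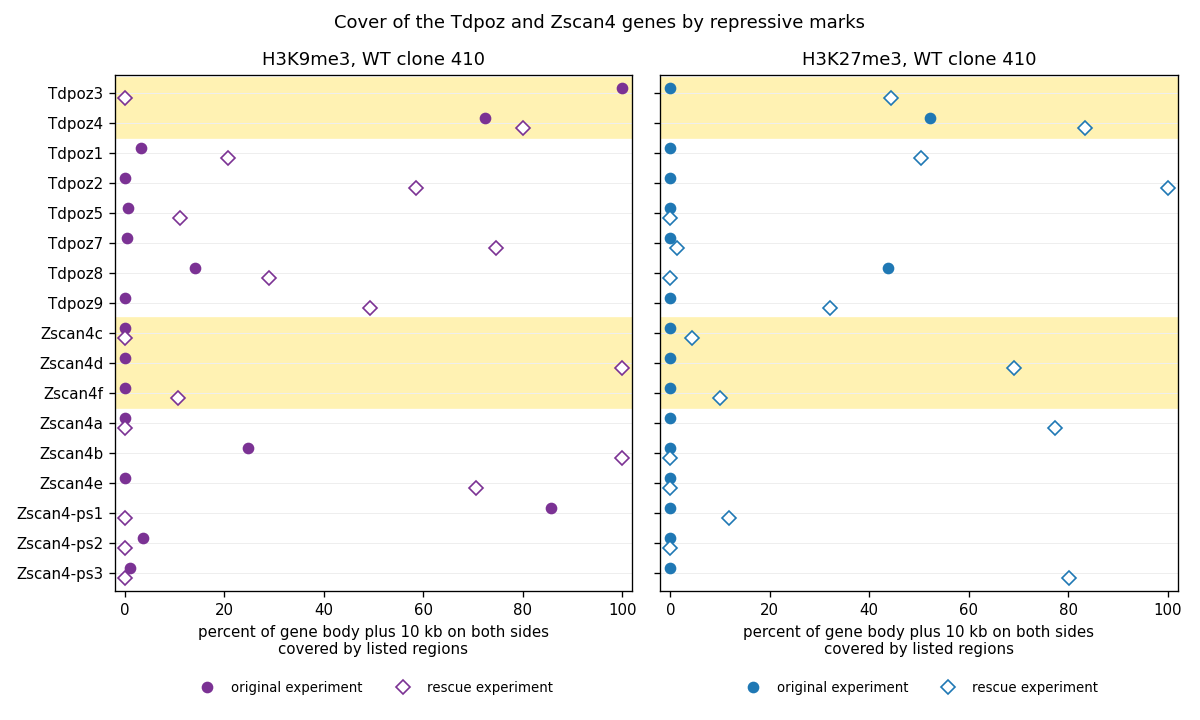
Percent of the gene body plus 10 kb on both sides covered by listed regions in WT clone 410, for H3K9me3 (left) and H3K27me3 (right), for every Tdpoz and Zscan4 gene of the annotation. Filled circles are the original experiment, open diamonds the rescue experiment, and yellow bands mark Tdpoz3, Tdpoz4, Zscan4c, Zscan4d and Zscan4f. Tdpoz3 and Zscan4-ps1 are at 100% and 85.8% in the original H3K9me3 list and at 0 in the rescue list, and Zscan4d and Zscan4e are at 0 in the original list and at 100% and 70.7% in the rescue list.

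Over the whole clusters, the H3K9me3 lists covered more than the genome average and, in the Zscan4 cluster, shared few bases. The Tdpoz cluster from Tdpoz2 to Tdpoz7 (421103 bp, 16 annotated genes) had 28.3% of its bases in original and 32.8% in rescue H3K9me3 regions, against 7.33% and 17.1% of the genome. The lists shared 56.4 kb there, or 47.3% of the original and 40.8% of the rescue bases, beside 85.1% and 36.6% genome-wide. The Zscan4 cluster from Zscan4a to Zscan4-ps3 (819872 bp, 41 annotated genes, 34 of them pseudogenes) had 15.8% and 37.0% of its bases in H3K9me3 regions. The lists shared 17.5 kb of it, or 13.5% of the original and 5.76% of the rescue bases. The rescue list put the Zscan4 cover in 4 regions and the original list in 9. H3K27me3 covered less of both clusters than of the genome, where the original list held 13.3% and the rescue list 34.2% of bases. The Zscan4 cluster had no original region and 17 rescue regions with 8.08% of its bases, and the Tdpoz cluster had 5.75% in original and 28.6% in rescue regions. H3K4me3 peaks were sparse in the Zscan4 cluster at 1.22 per Mb in the original and 2.44 per Mb in the rescue list, against 35.7 and 40.7 per Mb in the genome, and SUZ12 had no peak in either cluster in any clone.

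Other genes of the 2-cell-like state were compared with the 5 genes through a list of 33. H3K9me3 touched 18 of the 33 (54.5%) in the original list and 30 (90.9%) in the rescue list, beside 47.8% and 76.8% of coding genes. The median gene of the 33 had 3.42% and 42.6% of its window covered, against medians of 0% and 5.20% over all coding genes. The most covered in the original list were Pramel6 with 74.9%, Tcstv3 with 51.2%, Obox5 with 46.7% and Gm8300 with 45.0%, so that Tdpoz3 had more than each of the 33 and Tdpoz4 more than all but Pramel6. In the rescue list 15 of the 33 had at least 50% of the window covered, beside 4.44% of coding genes. Several of the 33 are copies of the same family on the same chromosome, such as the Obox and the Usp17l genes. They are therefore not 33 separate finds, and how many share a region was not counted. There Pramel6, Tcstv3, Obox5 and Gm8300 had between 68.5% and 87.8%, and Tdpoz3 had none. H3K4me3 was listed at 10 of the 33 (30.3%) in each experiment, beside 81.9% of coding genes in the original and 83.4% in the rescue list. The highest H3K4me3 folds were at Arg2, an arginase, with 80.0, Usp17lb, a deubiquitinase, with 45.5, Zscan5b with 38.4 and Pramel7 with 18.9. Of the 33, SUZ12 peaks were listed at Arg2, with folds of 42.2 in clone 439, 34.6 in clone 442 and 35.2 in WT clone 410, and at Duxf3, a copy of the homeobox gene Dux that switches on the 2-cell programme, with 6.74 in clone 439, 4.01 in clone 442 and 3.62 in WT clone 410. The 2 genes are 6.06% of the 33 in each clone, beside 30.8%, 32.6% and 26.5% of coding genes in clones 439, 442 and 410. The Duxf3 folds were below the list medians of 12.4, 11.1 and 13.4 in these clones. All these folds come from 1 list per clone and were not tested.

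The 14 regulators of the 2-cell-like state carried active marks throughout. All 14 had H3K4me3 and H3K27ac peaks in each list of these marks, beside 81.9% and 83.4% of coding genes for H3K4me3 and 73.4% for H3K27ac. The highest original H3K4me3 folds were at Chaf1a (130.0), a subunit of the histone chaperone CAF-1, Kdm1a (121), a lysine demethylase, Ehmt1 (115), an H3K9 methyltransferase, and Dppa4 (101), an activator of Dux. H3K9me3 touched 6 of the 14 (42.9%) in the original and 11 (78.6%) in the rescue list, close to the 47.8% and 76.8% of coding genes. No regulator had 50% of its window covered, a level found at 1.24% and 4.44% of coding genes. The highest original covers were 13.6% at Rif1, 10.1% at Smchd1, 4.10% at Pcgf6 and 3.78% at Ehmt1. SUZ12 peaks were listed at Setdb1, an H3K9 methyltransferase, with folds of 6.57 in clone 439, 6.89 in clone 442 and 9.01 in WT clone 410, and at Smchd1 in clone 442 alone with 4.83. In clones 439, 442 and 410 these were 1, 2 and 1 of the 14, beside 30.8%, 32.6% and 26.5% of coding genes. Each of these folds was below the median of its list, 12.4, 11.1 and 13.4 in the same order. Spop, the relative of the Tdpoz genes outside their cluster, had an H3K4me3 peak of 91.8 and Spopl one of 80.5. Spopl had a SUZ12 peak of 6.20 in clone 439 alone, also below the median of that list.

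**Figure D4:**
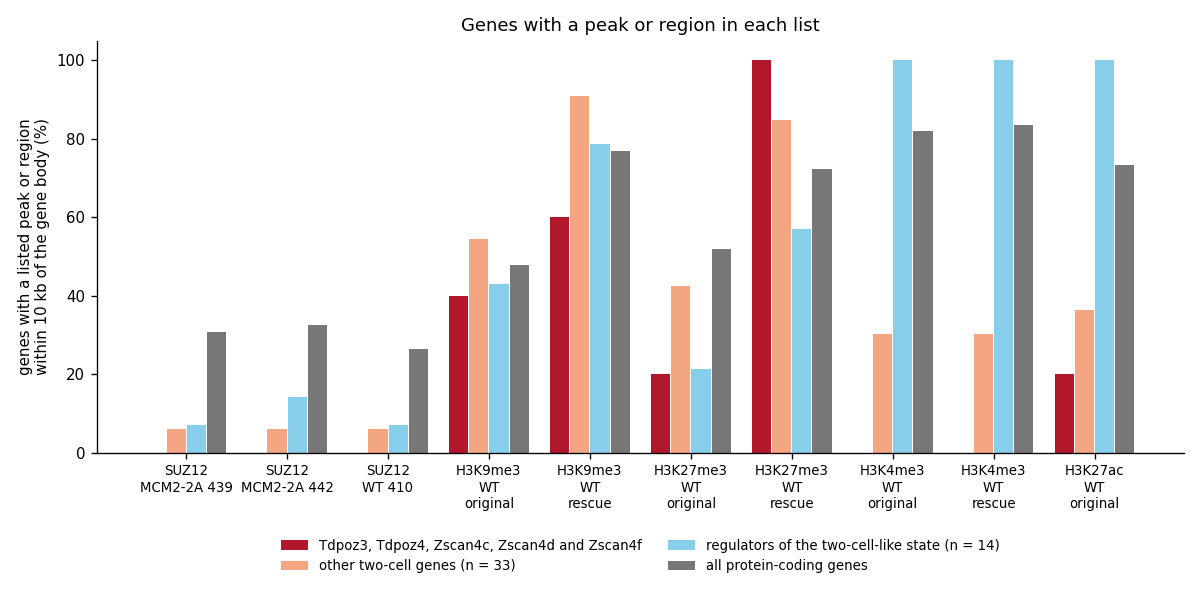
Percent of genes with a listed peak or region in the gene body plus 10 kb on both sides, for each of the 10 lists. Bars are Tdpoz3, Tdpoz4, Zscan4c, Zscan4d and Zscan4f (red), 33 other 2-cell genes (orange), 14 regulators (blue) and all 21887 protein-coding genes (grey). The red bars are at 0 for SUZ12 and H3K4me3, where the grey bars stand between 26.5% and 83.4%, and the regulators are at 100% for H3K4me3 and H3K27ac.

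Outside both families, the coding genes with covers most like the mean of the Tdpoz pair over the 10 lists were Olfr1082, an olfactory receptor gene, Defb39, a defensin, Vmn2r10, a vomeronasal receptor gene, Krtap5-3, a keratin-associated protein, and Slfn1. Their mean absolute differences were between 4.84 and 6.06 percentage points over 10 lists. The likeness is to a mean that neither Tdpoz gene has, since for rescue H3K9me3 it averages 0% at Tdpoz3 and 80.0% at Tdpoz4, and the 5 named genes had between 47.1% and 61.1% of original H3K9me3 against a mean of 86.2%. For the mean of the 3 Zscan4 genes they were Olfr1280, Gm51593, Mill1, Gm9119 and Ssxb5, at 0.529 to 0.757 percentage points. Olfr1280 and the other 4 named after it had no original H3K9me3 and between 33.3% and 39.7% of the window covered in the rescue list, where the Zscan4 mean was 36.9%, a mean of 100%, 10.6% and 0%.

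Some words were searched in the promoter stretches on both strands. The TATA word TATAAA was in 13.6% of the 32851 promoters and in those of Zscan4c, Zscan4d and Zscan4f, where it began 54, 65 and 31 bp before the annotated start site. It was also in the Zscan4b promoter, 31 bp before the start site, and it was not in the Tdpoz4 stretch. The word TGATTCAA, part of the sequence bound by the homeodomain protein DUX, was in 0.581% of promoters and does not overlap the TATA word. It was found in those of Zscan4c, Zscan4d and Zscan4f, 184, 195 and 161 bp before the start site, and not in that of Zscan4b. Because these 3 stretches are near copies, with 97.2% to 99.3% identity, neither word counts as 3 separate finds. The CG count of the stretches was 4 for Zscan4c, 3 for Zscan4d and 3 for Zscan4f.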

How the data were processed

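Peak lists from ChIP-seq of MCM2-2A clones 439 and 442 and of WT clone 410 were analysed on mm10. Tools named by the submitters' processing notes, without roles, are Picard 2.20.7, MACS2 2.1.0, BWA 0.7.15 and cutadapt 2.5. Not given in the sources used here: caller settings and the program behind the broad regions. The authors joined the replicates of a clone into 1 list per mark and experiment. The lists of histone marks are labelled as reproducible peaks and the SUZ12 lists as IDR (irreproducible discovery rate) peaks. The SUZ12 lists may therefore have been filtered in another way than the lists of histone marks. The deposited lists of SUZ12, H3K4me3 and H3K27ac hold a fold enrichment (a ratio to the caller's background), a score and the −log10 of p, of which the fold was used. The deposited H3K9me3 and H3K27me3 lists hold unnamed strength scores of unknown scale, from which ranks within each list were taken.

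Coordinates count from 1. The percent of each gene body and window covered, the nearest interval and the ranks were computed with Python 3.11.15, pandas 2.3.3 and numpy 2.4.6, and the interval code was tested on simulated intervals. Gene positions and promoters came from RefSeq (GRCm38.p6), in which all 82 listed symbols were found and 4 of the 5 genes had a promoter. Promoters were aligned pairwise with Biopython 1.88, with free end gaps. The 5 genes and every family copy were named in full. Of the other 2-cell genes and of the regulators, the 4 with the highest original H3K9me3 cover and the 4 with the highest original H3K4me3 fold were named, with any gene that a SUZ12 list holds, and the 5 coding genes outside the families most like each set. The genes and lists were chosen with earlier results of these data known. Intervals were also counted over the gene body alone, within 50000 bp, in the stronger part of each list, with 50% of the window asked for, and after joining regions within 1000 or 5000 bp. The other libraries of the series were not analysed here.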

Additional observations from a re-analysis of the deposited data

How the results depend on the processing

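With 22 results and 50 alternatives, 32 alternatives left a count unchanged or within 1.5 times, or a region width exactly unchanged. The H3K9me3 count was 2 of 5 in the original list over the gene body alone, in the stronger part of the list and with 50% of the window asked for, and 3 within 50000 bp. In the rescue list the same alternatives gave 2, 2, 2 and 4 in place of 3. Within 50000 bp, the H3K27me3 count was 2 in place of 1 in the original list, the H3K4me3 count 1 in place of 0 in the rescue list and the H3K27ac count 3 in place of 1. Over the gene body alone, H3K27me3 in the rescue list was at 3 genes (Tdpoz3, Tdpoz4 and Zscan4d) in place of 5 and H3K27ac at 0 in place of 1, and the stronger part of the lists also gave 3 and 0. SUZ12 stayed at 0 within 50000 bp in all 3 clones. Shares of coding genes were not computed within 50000 bp, in the stronger part of the lists, or for H3K27ac over the gene body. The counts under these settings, here and below, therefore have no background and do not show anything particular to these genes.

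For H3K9me3 over the gene body alone, Tdpoz1, Tdpoz2, Tdpoz3, Tdpoz4 and Tdpoz5 gave 2 in place of 4 in the original and 2 in place of 4 in the rescue list, the other 2-cell genes 7 in place of 18 in the original list, and the regulators 2 in place of 6 and 4 in place of 11. In the stronger part of the lists, these Tdpoz genes gave 2 in the original list. Zscan4a to Zscan4f, counted without Zscan4-ps1, Zscan4-ps2 and Zscan4-ps3, gave 0 in place of 1 there. The other 2-cell genes gave 10 in the original list and the regulators 7 in the rescue list. Joining regions within 5000 bp widened the Tdpoz region to 75131 bp in the original list and the Tdpoz4 region to 64441 bp in the rescue list. The Zscan4d region stayed at 209641 bp and the Zscan4f region at 2591 bp. No paired analysis was possible because each list joins its replicates and carries no replicate values.

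The broad lists give no scale for their strength, and the rescue H3K9me3 list covers 465 Mb against 199 Mb in the original list, so ranks are read within a list, and covers set side by side between the lists carry this difference in extent. The experiments also differ in replicate number, 3 against 2, and this cannot be told apart from the experiment itself.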
